A study of Mus musculus with 2 samples.

Results

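Tuft cells are epithelial cells that use the taste transduction pathway to sense their surroundings, and the genes described here are 10 genes that carry out or define that programme: Pou2f3, Trpm5, Gnat3, Gng13, Gnb3, Plcb2, Tas1r3, Avil, Chat and Dclk1. They were chosen by name as taste transduction and tuft identity genes, and every transcript line of the deposited values whose RefSeq accession belongs to one of these symbols was used. This gave 16 of 30794 transcript lines and 10 of 23123 named genes. Dclk1 had 7 lines and each of the other 9 genes had 1. All 10 genes had a mean of 0.5 RPKM or more over both libraries, the level used as a filter for the counts over all genes. RPKM are read numbers scaled by transcript length and library depth, so levels can be set beside each other between genes.

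The study sequenced poly(A)-selected RNA of medullary thymic epithelial cells (mTEC), the cells that show self-antigens of the whole body to maturing T cells. Thymi of B6 mice (genotype WT) were pooled and the cells sorted on surface MHC class II into an MHC-II-high and an MHC-II-low group, with 1 library made from each. Sequencing used paired ends of 100 bases for the MHC-II-high cells and single ends of 50 bases for the MHC-II-low cells, so group and library type cannot be told apart. The labels give no age, and a library of pooled thymi shows no spread between mice. With 1 library per group there is no replicate check and no test, and every value describes these 2 libraries.

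In a taste cell, a receptor of the Tas1r or Tas2r family activates the G protein gustducin, whose alpha subunit is encoded by Gnat3 and whose beta and gamma subunits are encoded by Gnb3 and Gng13. The freed subunits activate phospholipase C beta 2, calcium is released from stores, and the cation channel Trpm5 opens. Tuft cells of gut, airway and thymus use the same chain under the transcription factor Pou2f3, and tuft cells of the thymus are a specialised subset of mTEC.

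The values imply about 114600000 reads in the MHC-II-high and 20950000 in the MHC-II-low library. Lines at 0 made up 9.14% in the MHC-II-high and 28% in the MHC-II-low library. Epcam, an epithelial surface marker, had 198 RPKM in the MHC-II-high and 127 RPKM in the MHC-II-low library, and H2-Aa, an MHC class II chain, had 4908 against 1524 RPKM. All 10 mTEC markers checked were above 1 RPKM in both libraries. Changes are log2 of RPKM plus 1 in the MHC-II-high over the MHC-II-low library, after a factor of 1.21 on the MHC-II-low values, 0.27 in log2, which brought the median ratio of well-expressed genes to 0 in log2. A change counts as 2-fold at 1 on that scale. Intervals of 95% rest on read numbers recovered from the RPKM values and cover counting error only. They belong to the scaled log2 ratio without pseudocount, so a change printed beside one need not lie at its centre.

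The tuft genes were present in both sorts and most stood lower in the MHC-II-high library. Of the 10 genes, 0 were at least 2-fold higher and 2 were at least 2-fold lower, Gng13 and Chat, against 16.1% higher and 9.35% lower among 15590 genes over the filter. Their median log2 change was -0.55, beside 0.03 for all genes over the filter. Changes ran from -1.79 for Gng13 to 0.33 for Pou2f3. Values of 9 genes were below 0 and that of Pou2f3 was above it, although Plcb2 turned positive without scaling (0.14 in the unscaled ratio) and with equal RPKM sums (0.01), and Plcb2 and Avil did so with the upper quartile of genes above 0 made equal. In bulk RNA, fewer tuft cells and less RNA per tuft cell cannot be told apart.

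**Figure D1:**
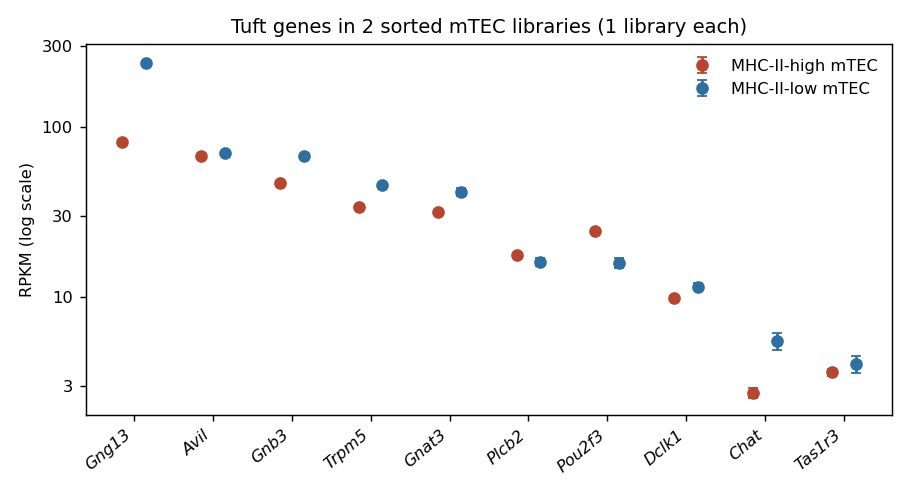
RPKM of the 10 tuft genes (log scale) in the MHC-II-high library (red, left) and the MHC-II-low library (blue, right), 1 library each, with 95% counting intervals. Gng13 stands apart with 82 against 237 RPKM, and Pou2f3 and Plcb2 are the genes whose red point lies above the blue one.

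Gng13, the gamma subunit that pairs with gustducin, was the highest of the 10 genes in both libraries. It had 82 RPKM in the MHC-II-high library and 237 RPKM in the MHC-II-low library. That is a log2 change of -1.79, with a counting interval of -1.86 to -1.74 for the ratio without pseudocount. In the MHC-II-low library 99.3% of all genes lay below Gng13, against 97.1% in the MHC-II-high library. The Gng13 line shares 55.5% of its length with exons of Chtf18, a replication factor gene on the opposite strand, and these libraries do not keep strand. The Chtf18 line had 4.05 RPKM in the MHC-II-high and 13.5 RPKM in the MHC-II-low library. Its value holds the shared bases too, and the share of reads from each gene cannot be told apart.

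Gnb3, the beta subunit, had 46.8 RPKM in the MHC-II-high and 67.1 RPKM in the MHC-II-low library (log2 change -0.78). Gnat3, the gustducin alpha subunit, had 31.8 against 41.4 RPKM (-0.64). The 3 subunits of the taste G protein were therefore all lower in the MHC-II-high library under every scaling tried, but by unequal amounts. Relative to Trpm5 in the same library, a ratio that no scaling moves, Gnb3 stood at 1.39 and 1.47, Gnat3 at 0.943 and 0.908, and Gng13 at 2.43 and 5.19 in the MHC-II-high and the MHC-II-low library. Gng13 was the subunit whose proportion to the channel differed most.

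Trpm5, the cation channel that depolarises taste and tuft cells, had 33.7 RPKM in the MHC-II-high and 45.6 RPKM in the MHC-II-low library (-0.69, counting interval -0.76 to -0.66). Plcb2, the phospholipase upstream of it, had 17.7 against 16.1 RPKM (-0.12). That was the smallest difference of the 10 with this scaling, as it was with equal RPKM sums. It was not the smallest without scaling or with the upper quartile of genes above 0 made equal. The sign of the Plcb2 change depended on the scaling. Plcb2 is also known in blood cells, and dendritic cell and macrophage markers stood higher in the MHC-II-high library. Of 10 such markers, 6 were at least 2-fold higher and 0 lower, against 10.8% higher and 6.30% lower among all genes without a filter. They summed to 537 RPKM in the MHC-II-high and 140 RPKM in the MHC-II-low library, of which Lyz2 alone gave 493 and 133 RPKM. Flt3 and Xcr1 had 1.27 and 0.598 RPKM in the MHC-II-high library and were at 0 in the MHC-II-low library. Clec9a and Siglech were at 0 there too, but their 0.0976 and 0.0981 RPKM in the MHC-II-high library lay below or near the 0.321 and 0.067 RPKM that a value of 0 allows. The part of such cells in the Plcb2 value was not tested.

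Tas1r3, the shared subunit of the sweet and umami receptors, was low in both libraries with 3.61 RPKM in the MHC-II-high and 4.03 RPKM in the MHC-II-low library (-0.35). Its partners were lower still. Tas1r1, the umami partner, had 1.74 against 0.962 RPKM, and Tas1r2, the sweet partner, had 0.226 RPKM in the MHC-II-high library and was listed at 0 in the MHC-II-low library. A value of 0 allows up to 0.047 RPKM for Tas1r2 there, taking 3 reads as the limit.

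Pou2f3, the POU domain factor that tuft cells need to form, was the exception in direction. It had 24.4 RPKM in the MHC-II-high and 15.9 RPKM in the MHC-II-low library, a log2 change of 0.33 with a counting interval of 0.24 to 0.45. It stayed above 0 in all 10 settings tried, from 0.28 to 0.74, and below 2-fold. Its ratio to Trpm5 was 0.724 in the MHC-II-high and 0.348 in the MHC-II-low library. Pou2f3 is also known in differentiating keratinocytes of the skin. A list of 10 keratinocyte and corneocyte genes, chosen after its values were known, had 4 genes at least 2-fold higher and 0 lower. Among all genes over the filter 16.1% were higher and 9.35% lower. The list summed to 1089 RPKM in the MHC-II-high and 478 RPKM in the MHC-II-low library, with a median change of 0.70. The largest differences were those of Krt10 with 231 against 14.6 RPKM and Krt1 with 62.8 against 1.76 RPKM. Others were nearly flat, such as Sbsn (0.07), Lor (0.11) and Calm4 (0.25), and none of the list was at 0. The part of keratinocyte-like cells in the Pou2f3 value was not tested.

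**Figure D2:**
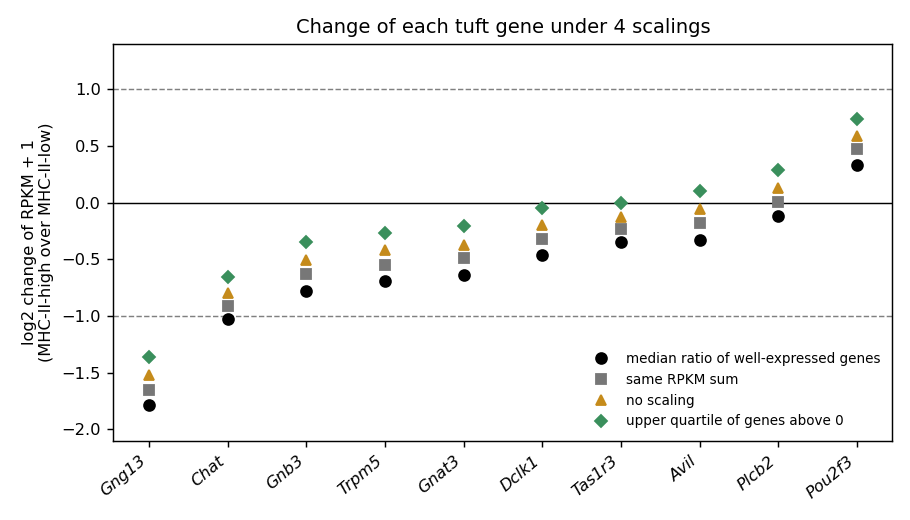
Log2 change of RPKM plus 1 (MHC-II-high over MHC-II-low) of the 10 tuft genes under 4 scalings of the MHC-II-low library, with dashed lines at 2-fold. Gng13 stays past 2-fold in all of them, from -1.79 to -1.36, Chat passes it at -1.03 with the median ratio and not with the other scalings shown, and Pou2f3 is above 0 in each.

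Avil, advillin, an actin-bundling protein of the tuft cell apex, had 67.5 RPKM in the MHC-II-high and 70.3 RPKM in the MHC-II-low library. Its log2 change of -0.33 was -0.06 as an unscaled ratio. Avil was the second highest of the 10 in both libraries, and in the MHC-II-low library its counting interval overlapped that of Gnb3. Its line shares 5.44% of its length with exons of Tsfm on the opposite strand, a gene at 10.8 RPKM in the MHC-II-high and 11.8 RPKM in the MHC-II-low library.

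Chat, choline acetyltransferase, makes the acetylcholine that tuft cells release. It was the lowest of the 10 in the MHC-II-high library with 2.74 RPKM, against 5.5 RPKM in the MHC-II-low library. Of all genes, 52.6% lay below Chat in the MHC-II-high and 68.4% in the MHC-II-low library, the widest difference in rank among the 10. The log2 change of -1.03 lay just past 2-fold, and the ratio without pseudocount had a counting interval of -1.46 to -1.09. The change was -1.25 with a pseudocount of 0.1 RPKM, -0.59 with one of 5 RPKM, and -0.66 with the upper quartile of genes above 0 made equal. Both transporters of the cholinergic pathway were too low to set beside it. Slc18a3, the vesicular acetylcholine transporter, was at 0.238 and 0.258 RPKM from 66 and 13 reads in the MHC-II-high and the MHC-II-low library, and its counting interval of -1.25 to 0.60 overlapped that of Chat. Slc5a7, the choline transporter, was at 0.0639 RPKM in the MHC-II-high library and at 0 in the MHC-II-low library. Ache, acetylcholinesterase, which breaks acetylcholine down, had 78.1 RPKM in the MHC-II-high and 21 RPKM in the MHC-II-low library (1.59).

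Dclk1, a doublecortin-like kinase long used as a tuft cell marker in gut, had 9.88 RPKM in the MHC-II-high and 11.5 RPKM in the MHC-II-low library on its highest line, NM_001195538 (-0.46). NM_019978 starts near the same upstream start and shares 99.4% of its exonic bases with it, so its 9.82 and 11.5 RPKM are not a separate measurement. NM_001111051, NM_001195539 and NM_001111052 start at a downstream start and share 94.3% to 95.7% of their bases with the highest line, and lay at 8.93 to 9.02 RPKM against 10.3 to 10.4 RPKM.

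The other 2 Dclk1 lines end early. NM_001111053 has 7 exons, shares 21.3% of its bases with the highest line, and had 4.05 against 5.51 RPKM. NM_001195540 has 3 exons, shares 1.83%, and had 1.92 against 3 RPKM. Without pseudocount their log2 ratios were -0.72 (counting interval -0.84 to -0.60) and -0.92 (-1.10 to -0.74), and that of the highest line was -0.50 (-0.57 to -0.42). NM_001111053 has 0 bases and NM_001195540 has 32 bases that are in no other line, so neither is measured apart from all other lines. Most bases of these 2 lines nevertheless lie outside the highest line, and their counting intervals do not overlap that of the highest line. The sources used here do not say how the authors split reads between isoforms.

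Promoter sequence was searched because Pou2f3 and its relatives bind an octamer, ATGCAAAT, and Pou2f3 differed between the libraries in the other direction from most of the 10 genes. RefSeq windows of the 250 bases before a start (build GRCm38.p6) were at hand for 8 of the genes, in 10 windows, since Dclk1 and Gng13 have a pair of starts each. The octamer, read on both strands, was in 0 of these 10 windows and in 1.6% of 32851 windows of all genes. The octamer is too rare over all windows for its absence from 10 of them to be read either way. Its first 7 letters, ATGCAAA, were in 1 window, that of Avil, on each strand, against 4.12% of all windows. Its last 7 letters, TGCAAAT, were in 1 window, that of Chat, against 3.56%. Shown are the windows of Avil (chr10:127000459-127000708, plus strand) and Chat (chr14:32465910-32466159, minus strand), which hold the shorter words, and the upstream window of Gng13 (chr17:25716922-25717171, plus strand), the gene with the largest difference. Each reads from 5′ to 3′ up to the start, capitals mark the 7-letter words, and a match is a description of letters only.
Avil: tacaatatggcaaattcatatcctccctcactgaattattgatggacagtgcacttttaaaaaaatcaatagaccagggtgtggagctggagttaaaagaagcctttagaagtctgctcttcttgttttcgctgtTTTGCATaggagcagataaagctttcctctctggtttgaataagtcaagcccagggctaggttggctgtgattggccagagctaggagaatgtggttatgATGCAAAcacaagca
Chat: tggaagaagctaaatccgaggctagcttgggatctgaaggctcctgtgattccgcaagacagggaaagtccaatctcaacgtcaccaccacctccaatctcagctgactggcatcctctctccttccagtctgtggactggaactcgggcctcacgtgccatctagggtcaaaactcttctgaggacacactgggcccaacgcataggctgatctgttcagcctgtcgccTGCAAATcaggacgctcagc
Gng13: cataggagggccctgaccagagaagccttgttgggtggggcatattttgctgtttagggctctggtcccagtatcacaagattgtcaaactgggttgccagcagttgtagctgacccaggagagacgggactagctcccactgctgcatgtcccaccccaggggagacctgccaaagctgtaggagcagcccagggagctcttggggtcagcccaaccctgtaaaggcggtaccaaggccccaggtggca
In Avil a word begins 115 bases before the start, where it reads on the opposite strand, and another 15 bases before it. In Chat the word begins 20 bases before the start. Gng13 holds neither word in this window.

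Relatives of the same protein families showed how far the tuft genes stood out by level. Pou2f1 and Pou2f2, the ubiquitous and the lymphoid relative of Pou2f3, had 2.11 and 0.11 RPKM in the MHC-II-high and 1.27 RPKM and 0 in the MHC-II-low library. Trpm4, the closest relative of Trpm5, had 5 against 5.5 RPKM, and Trpm2 and Trpm7 were lower than Trpm5 as well. Plcb2 exceeded Plcb1, Plcb3 and Plcb4 in both libraries, with Plcb4 at 7.24 against 2.22 RPKM and Plcb3 at 6.5 against 4.8 RPKM. Gnat3 was far above the transducin alpha subunits Gnat1 and Gnat2 of the retina, which had 1.12 and 0.829 RPKM in the MHC-II-high library and were listed at 0 in the MHC-II-low library. The general inhibitory subunit Gnai2 was higher than Gnat3, with 102 against 129 RPKM.

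Among gamma subunits, Gng13 in the MHC-II-high library was near the ubiquitous Gng5, which had 73.6 RPKM there, whereas Gng5 had 76 RPKM in the MHC-II-low library beside the 237 RPKM of Gng13. Gng11 had 1.78 against 31.7 RPKM (-3.82), a larger difference than that of Gng13. Gng11 is known in endothelium, and 6 endothelial markers summed to 15.4 RPKM in the MHC-II-high and 125 RPKM in the MHC-II-low library, all 6 at least 2-fold lower and none at 0. Vil1, the villin of brush borders and a relative of Avil, went the other way with 21.7 against 6.13 RPKM (1.43). Gsn, gelsolin, of the same family and abundant in fibroblasts, had 128 against 770 RPKM (-2.85). Fibroblast and pericyte markers summed to 162 against 705 RPKM, with 6 of 8 at least 2-fold lower, 1 higher (Rgs5) and none at 0. Beside both marker lists, 9.35% of all genes over the filter were lower and 16.1% higher. The part of endothelial cells, fibroblasts and pericytes in the values of the 10 tuft genes was not tested.

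**Figure D3:**
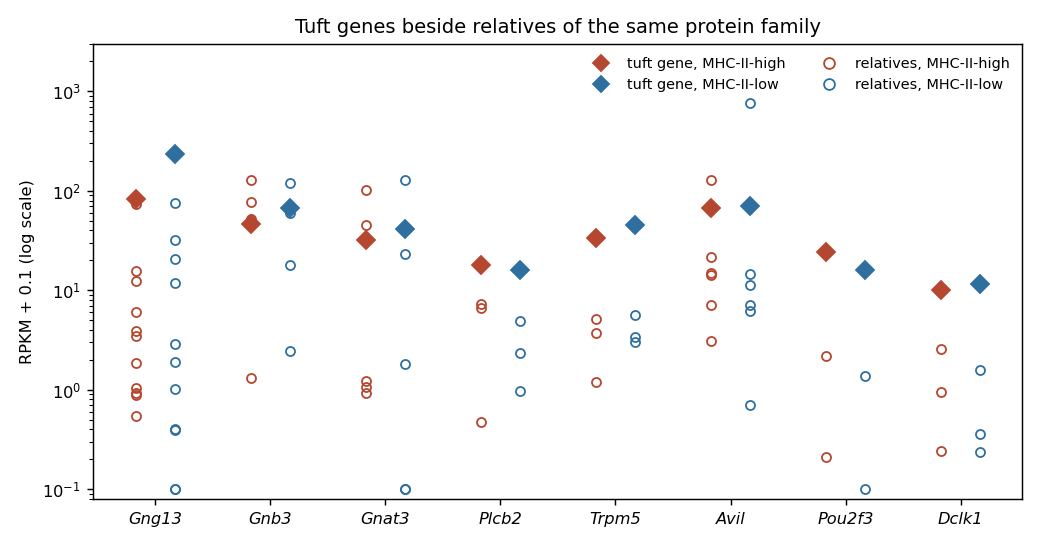
RPKM plus 0.1 (log scale) of 8 tuft genes (diamonds) and of relatives from the same protein family (circles) in the MHC-II-high (red, left) and the MHC-II-low library (blue, right). Gng13, Pou2f3, Trpm5, Plcb2 and Dclk1 lie above all the relatives shown, whereas Gnb3, Gnat3 and Avil have relatives at higher levels.

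Bitter taste receptors of the Tas2r family, which signal through gustducin, were the related list with the most genes past 2-fold. Of 35 measured Tas2r genes, 14 were at least 2-fold lower in the MHC-II-high library and 0 were higher, against 6.30% lower and 10.8% higher among all 23123 genes without a filter. Their RPKM summed to 33.1 in the MHC-II-high and 94.2 in the MHC-II-low library. At 1 RPKM or more were 11 receptors in the MHC-II-high and 19 in the MHC-II-low library. A pseudocount of 5 RPKM, well above the median level of these genes (0.417 RPKM in the MHC-II-high and 1.19 RPKM in the MHC-II-low library), left 4 lower, and 0.1 RPKM gave 17 lower and 2 higher.

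Tas2r105, a receptor for the bitter compound cycloheximide, was the highest in the MHC-II-low library with 3.93 RPKM in the MHC-II-high and 14.4 RPKM in the MHC-II-low library (-1.90), from 435 and 291 reads. Tas2r121 had 0.417 against 6.46 RPKM (-2.64), Tas2r116 0.455 against 5.53 RPKM (-2.40) and Tas2r102 1.05 against 7.61 RPKM (-2.31). These 4 receptors had 44 to 435 reads in the MHC-II-high and 106 to 291 reads in the MHC-II-low library. The counting interval of the log2 ratio without pseudocount was -2.36 to -1.93 for Tas2r105 and -4.75 to -3.71 for Tas2r121.

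Counting intervals lay below 0 for 18 of the 35 receptors and above 0 for 2. The share of all genes with such intervals was not computed, so these counts have nothing to be set beside. Some receptors inside 2-fold had intervals below 0, among them Tas2r137 with 3.09 against 4.39 RPKM (-0.63, counting interval -1.11 to -0.45) and Tas2r103 with 0.9 against 1.89 RPKM (-0.79, -1.89 to -0.75). Others had intervals that held 0. Tas2r108, the highest in the MHC-II-high library, had 7.36 against 7.07 RPKM (-0.19, counting interval -0.47 to 0.05). Tas2r123 and Tas2r126 had 1.1 against 1 RPKM and 0.742 against 0.62 RPKM. Listed at 0 in both libraries were 4 receptors, and a further 7 were at 0 in the MHC-II-low library only, with at most 0.307 RPKM in the MHC-II-high library. By annotation no exon of another gene overlaps any of the 35, but receptors of this family are similar to each other, 33 of them lie on chromosome 6, and reads of 100 paired and 50 single bases may be placed differently among them, which was not tested.

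**Figure D4:**
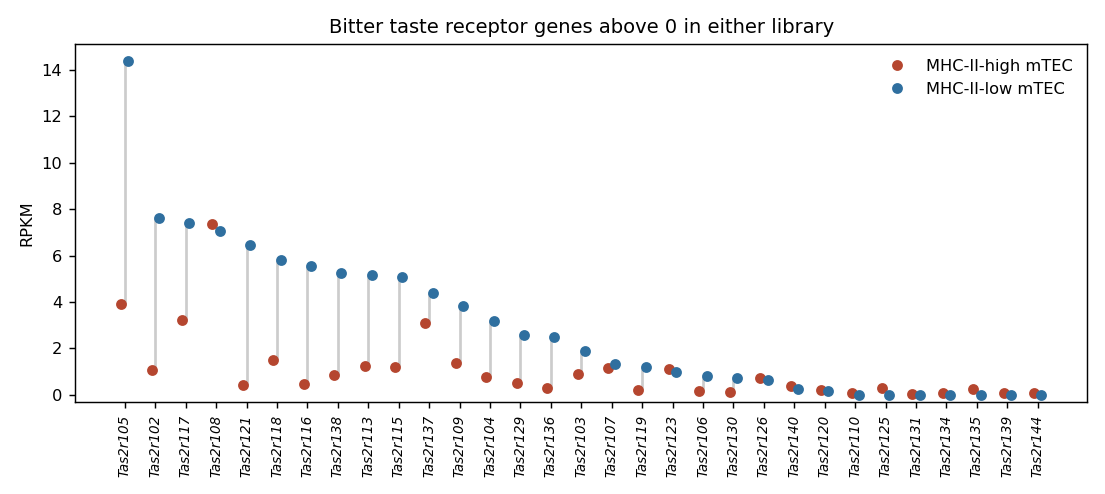
RPKM of the 31 bitter receptor genes above 0 in either library, ordered by the MHC-II-low value, with the MHC-II-high library in red (left) and the MHC-II-low library in blue (right). Tas2r105 reaches 3.93 against 14.4 RPKM, whereas Tas2r108 has nearly the same level in both.

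Tuft cell effectors leaned the same way as the taste genes, with 2 of 8 at least 2-fold lower and 0 higher and a median change of -0.52, beside 9.35% lower and 16.1% higher among all genes over the filter. Ptgs1, the cyclooxygenase of prostaglandin synthesis, had 10.2 RPKM in the MHC-II-high and 25.5 RPKM in the MHC-II-low library (-1.51). Il25, the cytokine by which tuft cells act on innate lymphoid cells, had 29.8 against 60.5 RPKM (-1.27). Of the leukotriene genes, Alox5ap had 56.7 against 83 RPKM (-0.81), Alox5 22.2 against 28.1 RPKM (-0.59) and Ltc4s 28.4 against 32.2 RPKM (-0.44). Above 0 were Ptges, a prostaglandin E synthase, with 20.7 against 15.5 RPKM (0.14), and the cytokine gene Tslp with 3.64 against 2.75 RPKM (0.10). Mast cells also use the leukotriene genes. Mast cell markers summed to 39.2 RPKM in the MHC-II-high and 9.4 RPKM in the MHC-II-low library, with 4 of 8 at least 2-fold higher and 0 lower. Among all genes without a filter, 10.8% were higher and 6.30% lower. Cpa3, Ms4a2, Fcer1a, Mcpt4, Tpsb2 and Cma1 were at 0 in the MHC-II-low library, whereas Kit and Gata2 changed by 0.34 and -0.21. The part of such cells in the effector values was not tested.

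Among 14 measured signalling genes, 1 was at least 2-fold lower, the kinase gene Matk with 5.86 against 10.6 RPKM (-1.01), and 0 were higher. That is near the 6.30% lower among all genes without a filter. Rgs13, a regulator of G protein signalling, had 29.9 against 50.2 RPKM, just inside 2-fold. Lrmp, a partner of inositol trisphosphate receptors, had 38.9 against 57.2 RPKM (-0.81) and Sh2d7, an adaptor gene of tuft cells, 22.5 against 34.7 RPKM (-0.87). Itpr3, the calcium release channel of taste cells, had 9.35 against 5.72 RPKM (0.39). Its change lay above the -0.69 of Trpm5, as did those of most of the 10 tuft genes, Plcb2 among them.

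Of 7 measured transcription factors, 1 was at least 2-fold lower, the homeobox gene Hmx3 with 4.22 against 7.88 RPKM (-1.01), and 0 were higher, beside 9.35% lower and 16.1% higher among all genes over the filter. Gfi1b, a zinc finger factor of tuft cells, had 5.35 against 4.19 RPKM (0.07) and Spib, shared with microfold cells and lymphocytes, 130 against 92.7 RPKM (0.22). Other receptors had 0 of 8 past 2-fold in either direction, beside 10.8% higher and 6.30% lower among all genes without a filter. Chrm3, low in both libraries, came nearest with 0.247 against 1.09 RPKM (-0.89). Its ratio without pseudocount had a counting interval of -2.81 to -2.01. Sucnr1, the succinate receptor of gut tuft cells, was at 3.84 against 2.25 RPKM (0.38), and Il17rb, the receptor of Il25, at 9.82 against 6.9 RPKM (0.21).

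Cytoskeletal and brush-border genes went the other way, with 4 of 11 at least 2-fold higher and 0 lower, beside the same 16.1% and 9.35%. Cdhr2, a protocadherin between microvilli, had 12.5 against 0.997 RPKM (2.61), its partner Cdhr5 39.2 against 9.74 RPKM (1.66) and Ush1c, the scaffold harmonin, 5.06 against 0.398 RPKM (2.03). Vil1 was the other. These 4 are also genes of gut enterocytes. Espn, espin, an actin bundler, had 32.3 against 35.3 RPKM (-0.39), close to Avil in its change.

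**Figure D5:**
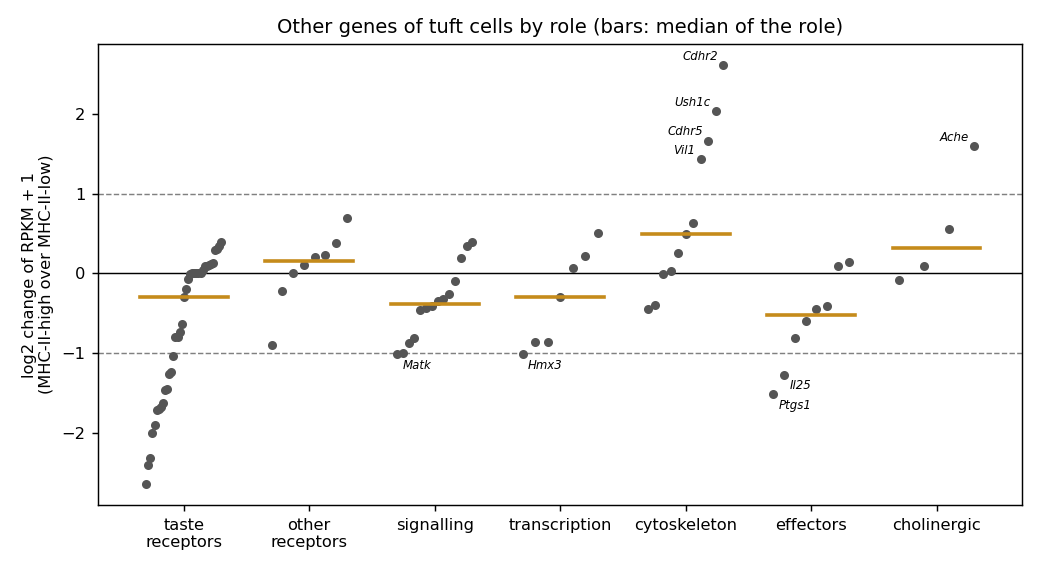
Log2 change of RPKM plus 1 (MHC-II-high over MHC-II-low) of 89 other genes of tuft cells by role, with bars at each role's median and dashed lines at 2-fold. Effectors have a median of -0.52 and the cytoskeletal genes one of 0.50, and the lowest points are bitter receptors.

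Over all 89 measured genes of these lists, 5 were at least 2-fold higher and 18 lower, of which 14 were Tas2r genes. Among all 23123 genes without a filter, 10.8% were higher and 6.30% lower. The median of the 89 genes was -0.10, beside 0.04 for all genes without a filter. With the upper quartile of genes above 0 made equal, the split was 6 higher and 12 lower, and over all filtered genes 3430 higher and 838 lower in place of 2508 and 1457.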

How the data were processed

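RPKM values per RefSeq transcript line, 1 column per library, were computed and deposited by the authors. Per the submitters' processing notes, the tools were Bowtie 1.0.0, CASAVA and bedtools with build mm9, no role being given, and per the labels' protocols the kit did not keep strand. Lines were named through RefSeq (30216) and GENCODE (180), and 398 unnamed lines were left out. A gene's value is its line with the highest mean. Reads were recovered from the steps of RPKM times transcript length: among lines with 1 to 10 reads, a whole number was met within 0.1 by 77.2% of 1639 in the MHC-II-high and 65.6% of 1061 in the MHC-II-low library. Lengths come from GENCODE and can differ from the authors'. Scaling used the 5167 genes whose mean reached 10 RPKM. The pseudocount was 1 RPKM, which understates changes of low genes. With 1 library per group, nothing was tested. The procedure was tested on simulated data. The 10 genes and all lists were chosen with earlier results of these data known. From the lists, genes past 2-fold and defining genes were named, and 5 entries that matched no symbol were not analysed here. Certain further genes and 1 marker list are not reported. The libraries are too few to rank genes by likeness of pattern. Overlaps and promoters come from GRCm38 and no coordinate was carried to mm9. Alternatives were pseudocounts, scalings, filters and choices of line. Software was matplotlib 3.10.9, scipy 1.17.1, pandas 2.3.3 and numpy 2.4.6 under Python 3.11.15.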

Additional observations from a re-analysis of the deposited data

How the results depend on the processing

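The count of 0 tuft genes at least 2-fold higher was the same in every setting tried. The count of 2 lower was 1 with a pseudocount of 5 RPKM, with no scaling, with equal RPKM sums and with the upper quartile of genes above 0 made equal, the last chosen after the data were seen; Chat was the gene lost. The median of -0.55 was -0.46 with a pseudocount of 5 RPKM, -0.29 unscaled, -0.41 with equal sums and -0.13 with that upper quartile, which also put Tas1r3 at 0.00 and Dclk1 at -0.05. Without pseudocount the scalings shift the ratios of all genes alike by construction, and with it they shift low genes less. Choice of transcript line moved the median by 0.01 at most, but 9 of the 10 genes have only 1 line, so little movement was possible. For the related genes, 0.1 RPKM as pseudocount gave 10 higher and 24 lower, and 5 RPKM gave 4 higher and 6 lower. Over all genes, 5 RPKM gave 877 higher and 648 lower, no scaling 3024 higher and 1011 lower, and a filter at a mean of 5 RPKM 1010 and 822. The MHC-II-low library, with about 20950000 reads, sets the limit for low genes: 1 bitter receptor read there is worth more RPKM than in the MHC-II-high library. No paired analysis was possible because each group has 1 library.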

Other observations

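Other families of sensory receptor genes were set beside the bitter receptors, a comparison added after the values were seen. Of the olfactory receptor genes 1 was at least 2-fold higher and 1 lower. Of the vomeronasal and trace amine receptor genes 0 were called in either direction, against 0 higher and 14 lower for Tas2r. With a pseudocount of 1 RPKM, a gene well below 1 RPKM in both libraries cannot reach 2-fold. At 1 RPKM or more were 3 olfactory receptor genes in the MHC-II-high and 2 in the MHC-II-low library. The vomeronasal and trace amine families had 0 such genes in either library, and Tas2r had 11 and 19. These calls therefore cannot compare direction between the families. The 1116 measured olfactory receptor genes (Olfr) summed to 44 RPKM in the MHC-II-high and 14.4 RPKM in the MHC-II-low library, and 334 against 20 of them were above 0. The 357 vomeronasal receptor genes summed to 4.67 against 0.845 RPKM, with 159 against 6 above 0. The 15 trace amine receptor genes summed to 0.901 RPKM in the MHC-II-high library and were all at 0 in the MHC-II-low library. The Tas2r family, with 33.1 against 94.2 RPKM, was the only one of these 4 with the higher sum in the MHC-II-low library, although more of its genes were above 0 in the deeper MHC-II-high library (31 against 24).

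Within the taste pathway the order of levels was nearly the same in both libraries. Of the 10 genes, Gng13, Avil, Gnb3, Trpm5 and Gnat3 held the first 5 places in each, in that order. Pou2f3 and Plcb2 held the places after them, with overlapping counting intervals in the MHC-II-low library, and Tas1r3 and Chat the last ones.

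B cell markers summed to 32.9 RPKM in the MHC-II-high and 12.3 RPKM in the MHC-II-low library, with 4 of 8 at least 2-fold higher and Cd79a, Ms4a1, Pax5, Vpreb3 and Fcrla at 0 in the MHC-II-low library. Thymocyte markers summed to 19.2 against 15.3 RPKM, with 1 of 10 (Cd4) higher and none at 0. Among all genes without a filter, 10.8% were higher and 6.30% lower, so the thymocyte count was near the share of all genes. Of red cell genes, the alpha globin Hba-a1 had 133 against 1915 RPKM (-4.12) and Alas2, an enzyme of haem synthesis, 8.73 against 10.5 RPKM (-0.49), while the erythroid factor Klf1 had 0.908 RPKM in the MHC-II-high library and was at 0 in the MHC-II-low library. The part of these cells in the tuft gene values was not tested.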
